A study of Mus musculus with 14 samples.

Results

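The comparison described here set 4 arrays of peritoneal macrophages from mice given thioglycollate medium together with IL-4 complex (Thio+IL-4c) against 4 arrays from mice given IL-4 complex alone (IL-4c). These 8 arrays were chosen by their treatment labels, out of 14 arrays in the series. Every mouse was C57BL/6, and every sample was of cells sorted as positive for both CD11b and the product of Adgre1, pan-macrophage surface proteins. The complex joined 5 µg of the cytokine with 25 µg of its antibody 11B11, which prolongs its action, and thioglycollate was 2 ml of a 4% broth. Both were given into the peritoneal cavity, so the 2 groups shared IL-4 complex and differed in thioglycollate. The other arrays were of mice given the PBS vehicle (PBS, 3 arrays) or thioglycollate alone (Thio, 3 arrays). The labels do not give the time between injection and sorting, and do not say whether the arrays of a group came from separate mice. The p-values thus measure the spread between arrays within the groups of all 14 arrays, which may be technical. That spread, and so each SE below, includes the spread among the 3 Thio arrays, which did not share 1 slide. No lineage tracing entered the labels: a difference between the groups is one between sorted populations.

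The cavity of an untreated mouse holds large resident macrophages, which are seeded early in life, depend on the transcription factor GATA6 and renew themselves by division. Thioglycollate is a sterile irritant that draws blood monocytes into the cavity, where they become macrophages, while resident cells become hard to recover. IL-4 acts through its receptor and the transcription factor STAT6, induces the alternatively activated state known for arginase and secreted lectins, and also drives resident macrophages into division. The question was which genes of that state are shared by macrophages of the 2 origins and which are carried by only one of them.

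A pair of upstream sequences introduces the alternative activation genes. Of the pair, 1 belongs to a gene with like readings in both populations and the other to a gene that differed. The bases below are the 160 before the gene's start in RefSeq (assembly GRCm38.p6), at chr16:48842449-48842608 on the plus strand for Retnla and at chr19:29410759-29410918 on the plus strand for Pdcd1lg2, upstream of the transcribed region of each. Capitals mark the half-sites TTC and GAA with any 4 bases between them, the spacing that STAT6 prefers, which reads the same on both strands.
Retnla: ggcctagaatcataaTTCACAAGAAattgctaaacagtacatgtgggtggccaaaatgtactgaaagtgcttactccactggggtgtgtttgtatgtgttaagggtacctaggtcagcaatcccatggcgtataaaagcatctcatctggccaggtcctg
Pdcd1lg2: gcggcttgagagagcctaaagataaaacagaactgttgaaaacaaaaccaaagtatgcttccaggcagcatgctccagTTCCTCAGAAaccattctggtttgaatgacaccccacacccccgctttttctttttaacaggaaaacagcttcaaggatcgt
This motif lay within 250 bases upstream in 5.85% of 32851 RefSeq gene starts. Of the 19 alternative activation genes with a sequence, 4 held it, which were Clec7a, Pdcd1lg2, Retnla and Tmem26 (21.1%). Shares in other lists varied, from 0% of resident macrophage identity genes to 31.6% of inflammatory cytokine genes, with 22.2% of type I interferon genes. A match is a description of the letters only.

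Levels are log2 of the processed array signal relative to the 75th percentile of the same array, so 0 is that percentile and a step of 1 is a doubling. A gene was called at an adjusted p under 0.05 in limma's fit across all genes. Of 20342 genes tested, 14245 were called (70.0%), with 5683 higher in Thio+IL-4c (27.9%) and 8562 lower (42.1%). The median difference over all genes was -0.21. A change was termed large when it was called and at least 4-fold, which held for 4746 genes (23.3%): 3391 rose (16.7%) and 1355 fell (6.66%). Such high shares form the background for every count below.

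Slide and treatment coincided. All IL-4c arrays lay on 1 slide with the PBS arrays and 1 thioglycollate array (Thio 1), and all Thio+IL-4c arrays lay on the other with the remaining thioglycollate arrays (Thio 2 and 3). Thio 1 correlated with Thio 2 and 3 at r of 0.848 to 0.865 and with the PBS arrays beside it at 0.917 to 0.931. For 71.2% of the large rises, Thio 2 and 3 stood at least 4-fold above Thio 1, although all 3 had the same treatment. The same was true of 16.9% of all genes. Crabp2, a retinoic acid carrier, shows the pattern: its difference was 3.41, but Thio 1 read 0.65 where Thio 2 and 3 read 3.60 and 3.74. That gap enters its SE of 0.533, while its SD was 0.109 within Thio+IL-4c and 0.185 within IL-4c. Olfactory and vomeronasal receptor genes, which serve smell, made up 1248 of the 20342 genes, 416 of the 3391 large rises and 138 of the 1355 large falls. Of their large rises, 87.3% stood at least 4-fold higher on Thio 2 and 3 than on Thio 1, against 39.2% of the family. Of their large falls, 65.9% stood at least 4-fold lower, against 19.2% of the family. Among large falls of any gene, 29.3% stood at least 4-fold lower on Thio 2 and 3 than on Thio 1, against 6.34% of all genes. Array weights estimated by limma were 0.0582 for Thio 1 and 0.648 to 2.15 for the others, and whether Thio 1 or the slide stands apart cannot be told apart.

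**Figure D1:**
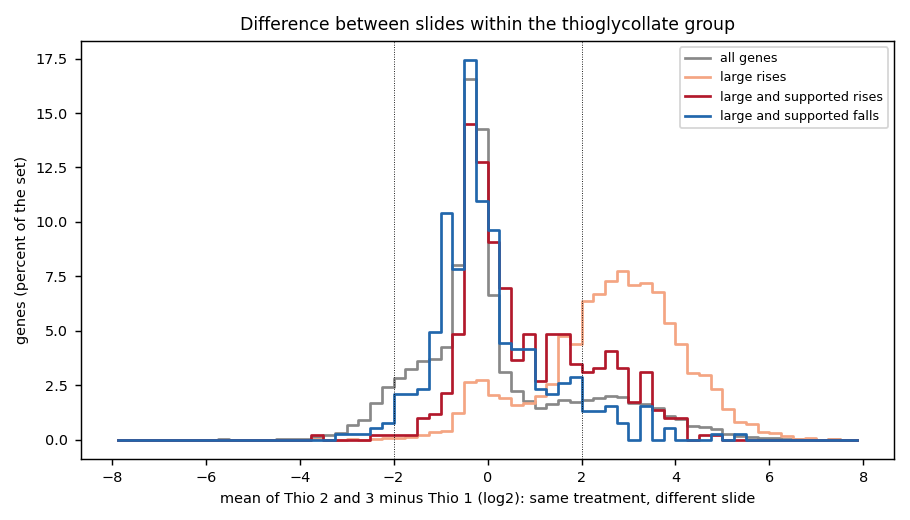
Distribution of the mean of Thio 2 and 3 minus Thio 1 (log2, x axis), arrays of the same treatment on different slides, as the percentage of genes in each set (y axis); dotted lines mark 4-fold. Large rises sit mostly to the right of the right-hand line (71.2% at or past it). Of large and supported rises 22.2% and of such falls 7.55% are at or past the line, but the support rule itself chose on Thio 1, so these narrower distributions are a description only.

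The text therefore gives most weight to large changes that were supported within the first slide. Of the 154 genes named, 82 were large and supported. A difference given with its SE alone is not thereby supported. A large change counted as supported when the 4 Thio+IL-4c and 4 IL-4c arrays did not overlap and Thio 1 lay beyond all 3 PBS arrays in the same direction, by at least 2-fold from their mean. Thio 1 and the PBS arrays take no part in the contrast itself. This left 901 genes (4.43%), of which 517 were higher in Thio+IL-4c (2.54%) and 384 lower (1.89%). Supported were thus 15.2% of the large rises and 28.3% of the large falls. Before the 2-fold limit, Thio 1 lay above the PBS mean for 48.6% of large rises, against 52.6% of all genes. It lay below that mean for 52.1% of large falls, against 47.4% of all genes. Direction in Thio 1 thus matched that of the large rises no more often than in all genes, and support is a rule of choice that rests on 1 array, not a test. Arrays that did not overlap were by themselves common (72.6% of genes). A fit with the slide as a block, which rests on Thio 1 against Thio 2 and 3, called 5437 genes (26.7%), 2496 higher (12.3%) and 2941 lower (14.5%). It called 299 of the supported rises and 354 of the supported falls in the same direction, but it uses the Thio 1 values that chose them and is no separate check. The number of supported rises depended on the scaling, with 258 after another background correction and 192 in the authors' deposited log2 table. A gene that responds to thioglycollate only together with IL-4 cannot meet this rule, so an unsupported change is not shown to be absent.

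**Figure D2:**
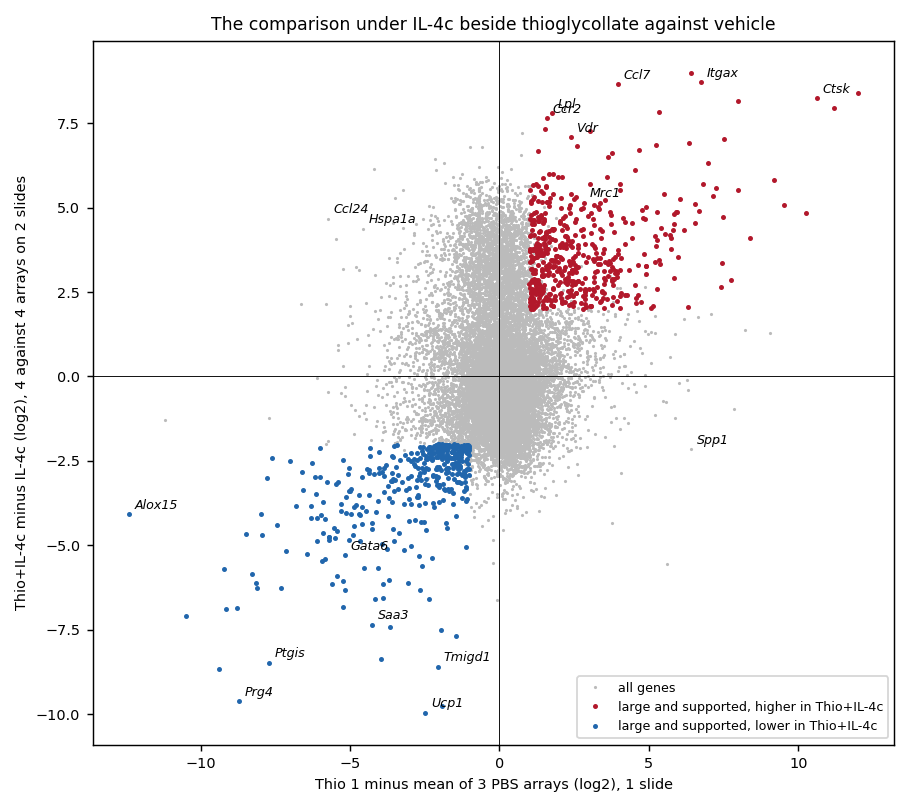
Each point is a gene, with Thio 1 minus the mean of the 3 PBS arrays (log2) on the x axis and Thio+IL-4c minus IL-4c (log2) on the y axis; coloured points are the 517 supported rises and 384 supported falls. Itgax, Ctsk and Ccl7 lie at the upper right, Prg4, Ptgis and Alox15 at the lower left, while Ccl24 and Hspa1a were higher in Thio+IL-4c and lower in Thio 1 than in PBS.

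The classical products of alternative activation gave nearly equal readings in both populations. Arg1, the arginase that turns arginine into ornithine, read 7.31, 7.18, 7.46 and 7.33 on the Thio+IL-4c arrays and 7.39, 7.24, 7.51 and 7.52 on the IL-4c arrays. Chil3, a secreted chitinase-like lectin, read 7.49, 7.18, 7.55 and 7.34 against 7.29, 7.13, 7.29 and 7.32. Retnla, a secreted resistin-like protein, read 7.67, 7.39, 7.69 and 7.58 against 7.47, 7.33, 7.46 and 7.59. Arrays of the groups overlapped for all 3 genes, and none was called. In both groups all 3 read lowest on replicate 2, which had the highest 75th percentile of its group (2537 for Thio+IL-4c, 3866 for IL-4c). Whether such bright probes were compressed was not tested, so equal readings need not mean equal RNA. The 95% intervals of the differences were -0.50 to 0.31 for Arg1, -0.22 to 0.48 for Chil3 and -0.10 to 0.33 for Retnla.

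Receptor and ligand genes of the pathway showed small differences. Il4ra, the IL-4 receptor chain, differed by 0.01 with an interval of -0.39 to 0.41, although its other probe gave 2.38. Stat6, which carries the signal, was lower in Thio+IL-4c by 0.66 ± 0.12 (SE, adjusted p = 0.000478), and the slide block left -0.17 (adjusted p = 0.467). Its other probes ran from -0.31 to 1.15, so the probes of Stat6 did not share a direction. Cd274, which encodes PD-L1, differed by -0.32 with an interval of -0.78 to 0.13.

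Other genes of alternative activation differed widely, and most of them were higher with thioglycollate. Of 25 measured members of the list, 14 rose and 4 fell, with 10 large rises and 2 large falls, and the median was 1.42 beside -0.21 for all genes. Supported were 7 rises and 2 falls, and the slide block called 11 higher and 5 lower, with a median of 0.48.

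Mrc1, the mannose receptor CD206, read 5.88, 5.95, 5.90 and 5.81 on Thio+IL-4c arrays and 0.50, 0.42, 0.94 and 1.08 on IL-4c arrays. That is a 35.5-fold difference (5.15 ± 0.15, SE; adjusted p = 5.38e-10), and the slide block gave 5.41. Thio 1 was above PBS by 2.83. Egr2, a transcription factor of the IL-4 response, read 3.31, 3.55, 3.34 and 3.67 against -1.69, -1.58, -1.48 and -1.23, a difference of 4.96 ± 0.14 (SE, adjusted p = 3.25e-10). The groups were far apart for both genes, with little spread inside each.

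Pdcd1lg2, which encodes the T cell inhibitory ligand PD-L2 and whose upstream bases are shown above, read 2.65, 2.49, 2.56 and 1.84 against -2.12, -1.90, -1.60 and -1.59. It was 18.3-fold higher with thioglycollate (4.19 ± 0.19, SE; adjusted p = 1.26e-08), while Thio 1 exceeded PBS by 1.17. Cdh1, the adhesion protein E-cadherin, rose by 4.98 ± 0.25 (SE) and was supported, though not after normexp background correction with percentile scaling or in the authors' deposited table. Tmem26, a membrane protein, rose by 6.91 ± 0.54 (SE), and only 1 of 4 IL-4c arrays had it well above background. Ear1, a secreted ribonuclease of the eosinophil-associated family, read 6.40, 6.13, 6.40 and 5.79 against -1.03, -0.45, -0.27 and -0.19. Siglecf, a surface lectin of eosinophils that some macrophages share, also rose by 2.33 ± 0.18 (SE). Siglecf was not large and supported after quantile normalization, with or without normexp, or in the authors' deposited table. Eosinophil markers as a list had 5 of 10 members higher and 4 lower, and their summed level ran from 6.34 to 6.72 against 5.94 to 6.19. Their granule peroxidase Epx overlapped between the groups, from -3.76 to -3.49 against -8.35 to -3.75. The part of such cells in these values was not tested.

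Ccl24, an eosinophil-attracting chemokine, and Aldh1a2, which makes retinoic acid, were higher in Thio+IL-4c than in IL-4c without support from Thio 1. Ccl24 read 7.20, 7.34, 7.44 and 7.38 on Thio+IL-4c arrays and 2.39, 2.70, 2.88 and 2.73 on IL-4c arrays, a difference of 4.67 ± 0.19 (SE, adjusted p = 7.04e-09). On Thio 1 it read -1.05, below the 4.51 to 4.86 of the PBS arrays, and Thio 2 and 3 were alike at -1.69 and -0.66. Aldh1a2 read 4.35, 4.25, 4.39 and 4.17 against 2.27, 2.47, 2.47 and 2.65, while Thio 1 lay 1.93 below PBS. Both genes were thus lowest with thioglycollate alone and highest with thioglycollate and IL-4c.

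A smaller group of genes linked to alternative activation was lower with thioglycollate. Ucp1, the mitochondrial uncoupling protein known from brown fat, read -5.60, -4.61, -3.41 and -4.75 on Thio+IL-4c arrays and 5.51, 5.04, 5.60 and 5.28 on IL-4c arrays. The fall of 9.95 ± 0.46 (SE, adjusted p = 1.7e-08) led all supported falls among genes measured on both sides. PBS arrays ran from -0.99 to -0.01 and Thio 1 read -3.12. Its relative Ucp2, present in many cells, was lower by 1.57 ± 0.12 (SE). Alox15, the 12/15-lipoxygenase, read 1.99, 1.88, 1.65 and 1.68 against 5.83, 5.95, 5.71 and 6.01, and Thio 1 was 12.39 below PBS. Slc7a2, a cationic amino acid transporter that brings arginine into the cell, was lower by 2.11 ± 0.15 (SE), and Klf4, a transcription factor of macrophage polarization, by 1.66 ± 0.17 (SE).

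Several of the largest falls belonged to genes outside that list. Tmigd1, an adhesion protein known from kidney and gut, read 2.79, 2.35, 3.27 and 3.05 on IL-4c arrays, and no Thio+IL-4c array exceeded -4.30. Mall, a membrane-raft protein, fell by 7.52 ± 0.45 (SE) and Tcf23, a helix-loop-helix factor, by 8.38 ± 0.67 (SE). Timd2, a receptor for ferritin and of the TIM family, fell by 6.58 ± 1.15 (SE), and its other probe by 6.19. These 4 genes were all above 2 on every IL-4c array and below -2 on every Thio+IL-4c array. Tmigd1 and Timd2 were no longer large and supported after normexp correction or in the authors' deposited table, nor was Mall after normexp with quantile normalization or in that table.

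**Figure D3:**
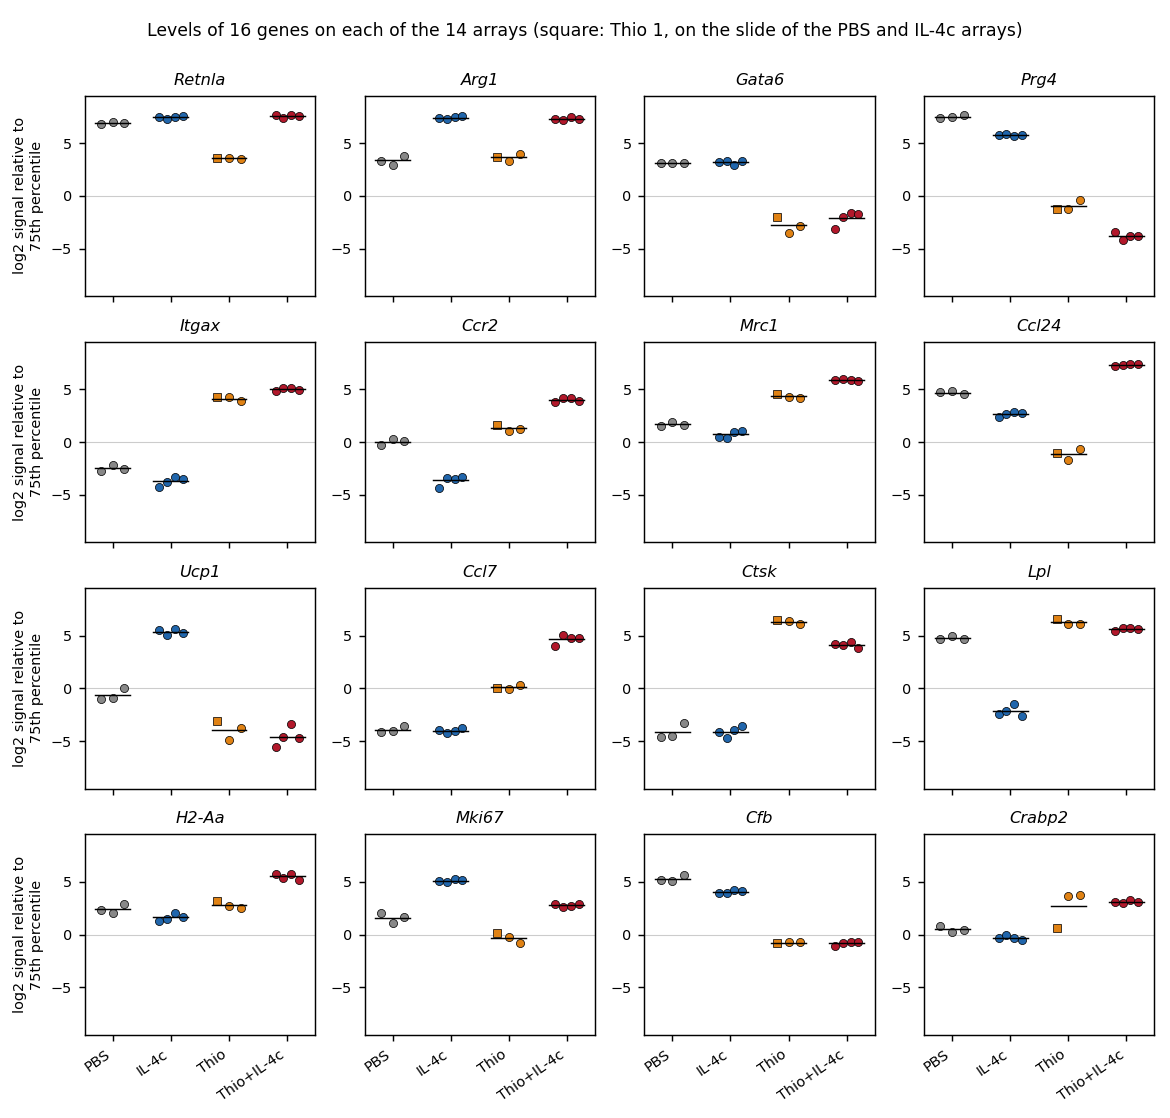
Level of 16 genes (log2 signal relative to the array's 75th percentile, y axis) on each of the 14 arrays by group; bars are group means and the square is Thio 1. Retnla and Arg1 coincide in the IL-4c and Thio+IL-4c groups, Ucp1 is high on the 4 IL-4c arrays only, Ccl24 is lowest with thioglycollate alone, and Crabp2 separates Thio 1 from Thio 2 and 3.

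Genes that identify resident peritoneal macrophages were lower in Thio+IL-4c nearly throughout. Of 23 measured, 22 fell and none rose, with a median of -4.76, and the other gene, Wt1, differed by -0.19 without being well above background in either group. There were 19 large falls, and all 19 were supported. The slide block again called 22 lower, with a median of -4.40, but it uses the Thio 1 values of the support rule. Leaving out Thio 1 gave 22 as well, but this alters only the estimated spread and not the differences. The list was written with earlier results of these samples known, so its direction is not independent evidence. In sorted bulk samples, fewer cells of a type and less RNA per cell cannot be told apart.

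Gata6, the factor that sets the resident state, read -3.12, -1.96, -1.64 and -1.74 on Thio+IL-4c arrays and 3.18, 3.31, 2.93 and 3.30 on IL-4c arrays. It was 39.3-fold lower (-5.30 ± 0.34, SE; adjusted p = 2.02e-07), and Thio 1 at -2.04 lay as low. Prg4, the lubricating proteoglycan, read -3.47, -4.17, -3.83 and -3.83 against 5.80, 5.86, 5.68 and 5.81, a fall of 9.62 ± 0.20 (SE, adjusted p = 7.88e-11). Timd4, the phosphatidylserine receptor that takes up dying cells, read -0.68, -0.67, -0.55 and -0.51 against 3.40, 3.17, 3.75 and 3.60. Within each gene the groups were separated by far more than the spread of either.

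Ltbp1, which binds latent TGF-beta, fell by 8.66 ± 0.24 (SE), and Tgfb2, a TGF-beta ligand, by 5.85 ± 0.34 (SE). Vsig4, a complement receptor, fell by 6.32 ± 0.29 (SE) and Icam2, an adhesion protein used to gate these cells, by 4.49 ± 0.16 (SE). Nt5e, the ectoenzyme CD73 that makes adenosine, fell by 7.10 ± 0.56 (SE). Serpinb2, an inhibitor of plasminogen activators, fell by 6.89 ± 0.57 (SE), with 1 Thio+IL-4c array at 1.15 and the others at -2.0 to -1.48. Thbs1, thrombospondin, fell by 3.24 ± 0.39 (SE). Cxcl13, the B cell chemokine of resident macrophages, was lower by 1.29 ± 0.30 (SE) and was already low on the IL-4c arrays, at -2.50 to -2.19 against 6.88 to 7.33 on PBS arrays.

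Some genes were detected on one side only. On every IL-4c array and no Thio+IL-4c array, 129 genes were well above background. Of these, 55.8% stood at least 4-fold lower on Thio 2 and 3 than on Thio 1, against 6.34% of all genes. Thio 1 lay above the PBS mean for 76.0% of them, opposite to the fall, against 52.6% of all genes. Cd209b, a C-type lectin, was well above background on all 4 IL-4c arrays and on no Thio+IL-4c array, where it was at least 52.7-fold lower. The same held for the fructose transporter Slc2a5 (at least 109-fold), the homeobox gene Rax (at least 14.6-fold), the kinase Ptk6 (at least 10.7-fold) and the G protein subunit Gnai1 (at least 9.28-fold). Ptk6 and Gnai1 had no support from Thio 1. These bounds set the mean of the bright group against the lowest signal well above background on the dim arrays, or the dim probe itself where higher. In the other direction, 535 genes were well above background on every Thio+IL-4c array and on no IL-4c array, and 78.8% of them stood at least 4-fold higher on Thio 2 and 3 than on Thio 1. Plac1, Olfr570 and Vmn1r232 were among them, with bounds of at least 46.3-fold, 44.3-fold and 41.6-fold, and lost their calls under the slide block (adjusted p of 0.812, 0.121 and 0.487).

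Markers of monocytes and their progeny divided by gene. Of 19 measured, 11 rose and 5 fell, with a median of 0.91, and 4 rises and 1 fall were supported. The slide block called 9 higher and none lower. Itgax, the integrin CD11c, read 4.85, 5.13, 5.15 and 4.94 on Thio+IL-4c arrays and -4.22, -3.78, -3.34 and -3.46 on IL-4c arrays, a rise of 8.71 ± 0.20 (SE, adjusted p = 1.45e-10). Ccr2, the receptor that brings monocytes into tissue, read 3.79, 4.15, 4.17 and 3.91 against -4.40, -3.37, -3.48 and -3.31, a rise of 7.64 ± 0.24 (SE). Thio 1 exceeded PBS by 6.74 for Itgax and 1.61 for Ccr2.

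Emb, an adhesion protein of the basigin family, rose by 7.26 ± 0.18 (SE), and Scimp, an adaptor of antigen-presenting cells, by 6.70 ± 0.16 (SE). Vdr, the vitamin D receptor, rose by 7.09 ± 0.30 (SE), but was not large and supported after normexp with percentile scaling or in the authors' deposited table. Cx3cr1, the fractalkine receptor, rose by 0.91 ± 0.18 (SE) and its other probe by 4.04. Cd226, an adhesion receptor, was 6.44 higher in Thio+IL-4c, with 1 of 4 IL-4c arrays well above background, whereas Thio 1 lay 2.16 below PBS. Ly6c1, a surface marker of inflammatory monocytes, was lower by 1.08, but its other probe gave a difference of 4.75, and it was not called under the slide block. Ly6c1 has a near-identical neighbour, Ly6c2, so its probes may not separate them.

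Neutrophil markers moved with these genes: 9 of 12 rose and 1 fell, 4 rises were supported, and the slide block called 3 higher. Their summed level ran from 5.75 to 5.95 on Thio+IL-4c arrays and from 5.14 to 5.45 on IL-4c arrays. S100a8 and S100a9, calcium-binding alarmins of neutrophils and monocytes, rose by 4.37 ± 0.29 and 5.65 ± 0.67 (SE). Mmp8, a neutrophil collagenase, was well above background on no IL-4c array and at least 13.6-fold higher. Mmp8 was not large and supported after normexp with quantile normalization or in the authors' deposited table. The part of other cells in the monocyte genes was not tested.

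Chemokines that attract monocytes were among the largest rises. Of 23 measured chemokines, 14 rose and 4 fell, with a median of 1.51 and 6 supported rises, and the slide block called 13 higher with a median of 1.81. Ccl7 read 4.03, 5.03, 4.79 and 4.73 on Thio+IL-4c arrays and -3.93, -4.25, -4.04 and -3.80 on IL-4c arrays, 402-fold apart (8.65 ± 0.21, SE; adjusted p = 1.81e-10). Ccl2, like Ccl7 a ligand of CCR2, read 4.63, 5.54, 5.48 and 5.19 against -1.30, -1.38, -1.28 and -1.15. Both ligands and their receptor were therefore higher in the same samples.

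Ccl3, an inflammatory chemokine, rose by 6.84 ± 0.40 (SE), with 2 of 4 IL-4c arrays well above background. Pf4, a CXC chemokine of platelets and resident macrophages, went the other way, with 2.79, 2.48, 2.38 and 3.26 against 5.55, 5.50, 5.88 and 5.75. Among 29 chemokine and cytokine receptors, 13 rose and 10 fell, with a median of 0.24. Besides Ccr2, only Il7r, the interleukin-7 receptor, was supported as higher, with a rise of 5.83 ± 0.39 (SE). Il1rl1, the interleukin-33 receptor ST2, was lower by 1.66 ± 0.49 (SE), though its other probes gave -0.072 and 0.025. Tgfbr2, a TGF-beta receptor, was lower by 2.22 ± 0.11 (SE) with no difference of that direction in Thio 1.

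MHC class II genes, which present antigen to CD4 T cells, were higher in Thio+IL-4c as a group. Of 13 measured, 11 rose and none fell, 8 of the rises were large, and the median was 2.16. The slide block called 10 higher with a median of 2.58, and no rise was supported. Those 10 include Ciita, whose difference the block could not adjust without a Thio 1 value. For 7 of the large rises Thio 1 stayed within 2-fold of the PBS mean or lay below it, and Ciita had no value on Thio 1. H2-Aa, the alpha chain of I-A, read 5.76, 5.33, 5.75 and 5.18 on Thio+IL-4c arrays and 1.24, 1.49, 2.08 and 1.71 on IL-4c arrays, a rise of 3.88 ± 0.24 (SE). Thio 1 read 3.19 and PBS arrays 2.01 to 2.87.

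H2-Eb1 rose by 3.57 ± 0.24, H2-Ab1 by 1.72 ± 0.25 and Cd74, the invariant chain, by 2.64 ± 0.23 (SE). Ciita, the coactivator that switches the class on, rose by 2.16 ± 0.29 (SE), without a value on Thio 1, where its spot was marked as an outlier and dropped from the fit. These 5 genes were singled out after their values were seen. Of those the naming rule took, H2-DMb2 rose by 4.53 ± 0.44 and H2-Oa by 4.11 ± 0.42 (SE), and both were lower in Thio 1 than in PBS, by 2.79 and 1.31. H2-Ob rose by 4.13 ± 0.53 (SE), but to 1.24 (adjusted p = 0.0509) with the slide as a block.

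The Y box, CTGATTGG, is 1 of the elements by which class II promoters are read. A pair of these promoters is shown because their genes rose together: 160 bases before the RefSeq start in GRCm38.p6, at chr17:34287824-34287983 on the minus strand for H2-Aa and at chr17:34305707-34305866 on the plus strand for H2-Eb1. Capitals mark the Y box, searched on both strands.
H2-Aa: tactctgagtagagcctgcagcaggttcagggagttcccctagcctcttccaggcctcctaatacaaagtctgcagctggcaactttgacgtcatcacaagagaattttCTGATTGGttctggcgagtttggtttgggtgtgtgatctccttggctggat
H2-Eb1: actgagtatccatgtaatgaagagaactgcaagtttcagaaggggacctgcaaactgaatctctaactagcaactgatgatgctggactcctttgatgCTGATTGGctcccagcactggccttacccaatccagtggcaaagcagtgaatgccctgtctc
The letters CTGATTGG occurred within 250 bases upstream of 3.83% of all gene starts and of 4 of 10 class II genes with a sequence (H2-Aa, H2-Eb1, H2-Eb2 and H2-Oa). Cholesterol synthesis genes held them about as often, in 7 of 18. Matches to the 2 motifs were searched and counted separately.

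Other presenting cells were measured beside these genes. Dendritic cell markers had 4 of 11 members higher and 3 lower, with a summed level of 6.39 to 6.58 against 6.06 to 6.17. Flt3, their growth factor receptor, rose by 4.29 ± 0.61 (SE), but its other probe gave -0.20 and the slide block 1.16 (adjusted p = 0.193). Dpp4, the surface peptidase CD26, rose by 4.20 ± 0.40 (SE), or by 2.51 with the slide block, without support from Thio 1. The dendritic cell list had a median of -0.63, or 1.12 with the block. None of its rises was supported, while its lowest member, at -2.35, was a supported fall. B cell markers had 6 of 13 higher and 7 lower, with summed levels of 1.88 to 2.01 against 1.94 to 2.13. Bank1, a B cell adaptor, fell by 4.87 ± 0.24 (SE). The part of such cells in the class II values was not tested.

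Irf8 and Batf3 rose too, without support from Thio 1. Irf8, a factor of monocytes and dendritic cells, rose by 3.60 ± 0.20 (SE), and Batf3, a dendritic cell factor, by 2.43 ± 0.14 (SE). Klf2, known from resident macrophages, was lower by 1.04 ± 0.27 (SE) and had no call under the slide block (adjusted p = 0.147). Of 30 factors, 12 rose and 9 fell, with a median of 0.10. Among 15 T cell ligands, 6 rose and 6 fell. Tnfsf9, the 4-1BB ligand, rose by 2.00 ± 0.17 (SE), and Lgals9, galectin 9, fell by 1.72 ± 0.14 (SE).

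Cell division genes were lower in Thio+IL-4c. Of 36 measured, 33 fell and 2 rose, with a median of -1.41 and 8 supported falls, and the slide block called 21 lower at nearly the same median, -1.42. Mki67, a marker of cycling cells, read 2.91, 2.63, 2.67 and 2.85 on Thio+IL-4c arrays and 5.06, 5.01, 5.24 and 5.14 on IL-4c arrays, 5.10-fold lower (-2.35 ± 0.22, SE; adjusted p = 3.62e-06). PBS arrays ran from 1.05 to 2.00 and Thio arrays from -0.83 to 0.10, so both IL-4c groups were above their own controls. Mki67 was thus highest on the IL-4c arrays.

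Ccna2, a cyclin of S phase and mitosis, fell by 3.12 ± 0.40 (SE), Ube2c, which marks mitotic cyclins for destruction, by 2.67 ± 0.23 (SE), and Ccnb2, a mitotic cyclin, by 2.49 ± 0.26 (SE). The 2 exceptions were Ccnd2, a G1 cyclin, and Tyms, which makes thymidylate. Ccnd2 rose by 4.20 ± 0.39 (SE), while Thio 1 was 2.86 below PBS. Tyms rose by 1.79 ± 0.36 (SE), but the slide block gave -0.16 (adjusted p = 0.7).

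Most mitochondrial and fatty acid oxidation genes were lower, by modest amounts. Of 28 genes of oxidative phosphorylation and uncoupling, 25 fell and 1 rose, with a median of -0.59, and the slide block called 13 lower with a median of -0.42. Ucp1 was the only large fall among them. Of 27 fatty acid oxidation genes, 20 fell and 4 rose, at a median of -0.67, or -0.36 with the block. In that list 3 rises were supported, those of Cd36 and Pparg among them, and no fall was. Hadh, Acaa2 and Acadl, enzymes of the cycle that shortens fatty acids, fell by 2.15 ± 0.16, 1.83 ± 0.14 and 1.68 ± 0.14 (SE), none with support from Thio 1.

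Glucose genes were mixed, with 7 of 19 higher and 4 lower. Slc2a3, a glucose transporter, rose by 3.43 ± 0.22 (SE) and was supported, though not after normexp or in the authors' deposited table. Hk2, an inducible hexokinase, rose by 1.89 ± 0.17 (SE), and Pfkl, a phosphofructokinase, fell by 1.81 ± 0.16 (SE). Among 24 cholesterol synthesis genes, 12 fell and 2 rose, and the slide block called 2 lower and 1 higher. Tm7sf2 and Dhcr7, late enzymes of that path, fell by 2.07 ± 0.10 and 1.41 ± 0.16 (SE), while Thio 1 lay above PBS by 0.56 and 0.85. Hmgcs1, near its beginning, rose by 0.49 ± 0.17 (SE, adjusted p = 0.0206), a call lost without IL-4c 1, without IL-4c 4 or without Thio+IL-4c 4, at 0.43, 0.39 and 0.38.

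Lpl and Cd36, which serve lipid uptake, rose in Thio+IL-4c. Lpl, the lipase that frees fatty acids from lipoproteins, read 5.42, 5.72, 5.69 and 5.65 on Thio+IL-4c arrays and -2.48, -2.13, -1.49 and -2.60 on IL-4c arrays, a rise of 7.79 ± 0.21 (SE, adjusted p = 3.25e-10). PBS arrays stood at 4.67 to 4.91, so it was the IL-4c arrays that were low. Cd36, a fatty acid and oxidized lipoprotein receptor, rose by 3.19 ± 0.14 (SE) and was likewise lower on IL-4c than on PBS arrays, at 0.23 to 0.85 against 3.49 to 3.64.

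Pparg, the lipid-sensing receptor, rose by 2.42 ± 0.23 (SE), while Thio 1 exceeded PBS by 4.64. Gpnmb, a membrane glycoprotein of lipid-laden and lysosome-rich macrophages, rose by 9.14 ± 0.59 (SE). It could not be checked for support, because its spot on Thio 1 was marked as an outlier and dropped. Apoe and Apoc1, lipoprotein components, fell by 3.21 ± 0.15 and 2.55 ± 0.20 (SE). Scarb1, the receptor for high density lipoprotein, fell by 1.60 ± 0.08 (SE), though its other probe gave -0.42. Of these falls, only that of Apoc1 was supported. Of 22 genes of lipid transport and storage, 10 rose and 6 fell.

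Ctsk, Atp6v0d2 and Dcstamp, each known from osteoclasts or fused macrophages, rose in Thio+IL-4c. They are named for their values and stand for no list. Ctsk, the collagen-degrading cathepsin K, read 4.24, 4.11, 4.39 and 3.81 on Thio+IL-4c arrays and -4.18, -4.69, -3.92 and -3.62 on IL-4c arrays, a rise of 8.24 ± 0.30 (SE, adjusted p = 2.79e-09). Atp6v0d2, a proton pump subunit needed for fusion, read 3.57, 3.51, 3.63 and 2.56 against -5.13, -5.58, -5.37 and -4.24, and its other probe rose by 8.22. Dcstamp, the fusion protein of osteoclasts and giant cells, read 0.94, 2.74, 1.92 and 2.17 against -5.17, -6.04, -5.57 and -6.81. For all 3, Thio 1 stood above PBS, by 10.61, 11.99 and 5.35.

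Itgb5, an integrin subunit, was well above background on no IL-4c array and at least 214-fold higher in Thio+IL-4c. Cd63, a membrane protein of late endosomes, rose by 5.69 ± 0.21 (SE). Of 26 lysosome and cathepsin genes, 7 rose and 11 fell at a median of -0.07, with 3 supported rises. Ctsf, cathepsin F, and Glb1, the lysosomal galactosidase, fell by 2.32 ± 0.19 and 1.92 ± 0.14 (SE). The large rises therefore did not extend to the list as a whole.

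Matrix-degrading enzymes and their inhibitor rose together. Of 29 matrix and repair genes, 15 rose and 9 fell, with a median of 0.97 and 8 supported rises, and the slide block called 11 higher. Mmp12, the macrophage elastase, read 2.62, 2.82, 2.81 and 2.62 on Thio+IL-4c arrays and -2.20, -2.75, -2.34 and -2.25 on IL-4c arrays. Mmp13, a collagenase, rose by 6.86 ± 0.46 (SE), with 2 of 4 IL-4c arrays well above background. Timp1, which inhibits such enzymes, rose by 5.91 ± 0.38 (SE). Spp1, osteopontin, fell by 2.16 ± 0.37 (SE), whereas Thio 1 was 6.42 above PBS, and the slide block gave -1.74 (adjusted p = 0.123).

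Mesothelial and stromal markers had 6 of 12 members higher and 2 lower, with summed levels of 1.17 to 1.30 against 0.60 to 1.08. Dcn and Col1a1, made by fibroblasts, rose by 3.84 ± 0.24 and 4.94 ± 0.66 (SE), and both were supported, but Col1a1 had no call under the slide block (adjusted p = 0.0531). Krt18, an epithelial keratin, fell by 3.57 ± 0.28 (SE), without support from Thio 1. Whether such cells entered the matrix values was not tested.

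Complement genes were mostly lower. Of 18 measured, 13 fell and 4 rose, with a median of -1.17, 6 supported falls and no supported rise, and the slide block called 9 lower and 2 higher. Cfb, factor B of the alternative pathway, read -1.08, -0.82, -0.71 and -0.69 on Thio+IL-4c arrays and 3.94, 3.90, 4.24 and 4.16 on IL-4c arrays. C4b, a component of the classical pathway, read 1.96, 1.72, 1.87 and 2.10 against 6.72, 6.72, 6.49 and 6.75. They were 29.5-fold and 27.1-fold lower, and no arrays overlapped. C2 rose by 2.57 ± 0.43 (SE), but by 0.51 with the slide block (adjusted p = 0.53), and C5ar1, the receptor for the fragment C5a, rose by 1.77 ± 0.25 (SE).

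Type I interferon response genes were lower without exception among those called. Of 22 measured, 19 fell and none rose, with a median of -1.92, or -1.42 with the slide block, which called 9. Supported were 7 falls. Irf7, which amplifies interferon production, read -2.0, -2.06, -1.48 and -2.23 on Thio+IL-4c arrays and 1.05, 2.06, 1.40 and 2.22 on IL-4c arrays. Oas3, an antiviral enzyme, fell by 3.38 ± 0.34 (SE). Irf7 and Oas3 were no longer large and supported in the authors' deposited table. Ly6a, an interferon-inducible surface protein, fell by 4.64 ± 0.34 (SE).

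Inflammatory mediators went both ways, with 10 of 25 higher and 7 lower. Saa3, an acute-phase protein, read -1.10, -0.98, -0.75 and -0.24 on Thio+IL-4c arrays and 6.57, 6.03, 6.85 and 6.89 on IL-4c arrays, a fall of 7.35 ± 0.22 (SE, adjusted p = 6.53e-10). Il6, the cytokine, read -0.08, -0.27, -0.49 and 0.11 against 3.12, 2.83, 2.41 and 3.17. Il18 fell by 2.16 ± 0.20 (SE), without support from Thio 1, and Pglyrp1, which binds bacterial peptidoglycan, by 7.41 ± 0.25 (SE).

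**Figure D4:**
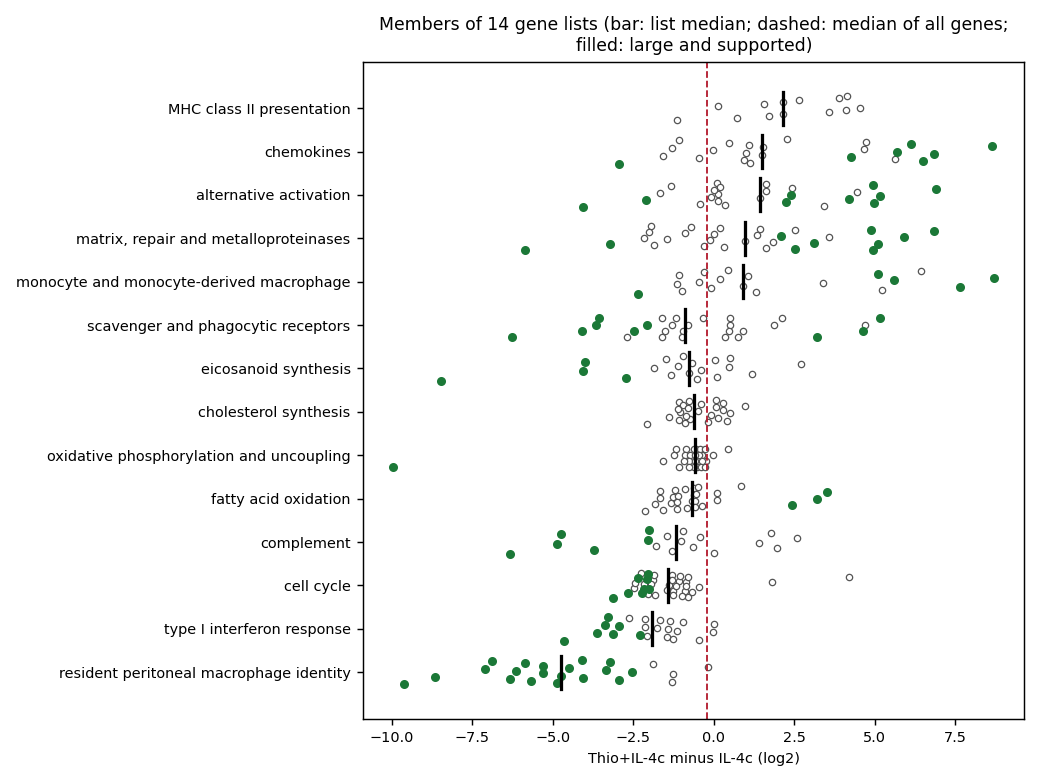
Thio+IL-4c minus IL-4c (log2, x axis) for each measured member of 14 gene lists (y axis); bars are list medians, the dashed line is the median of all genes at -0.21, and filled points are large and supported. Resident identity genes lie furthest left with a median of -4.76, class II genes furthest right with a median of 2.16 and no filled point.

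Of 19 lipid mediator enzymes measured, 12 fell and 4 rose, with 4 supported falls and a median of -0.76. With the slide block 7 were called lower and 2 higher, and the median was -0.21. Ptgis, prostacyclin synthase, read -2.83, -3.45, -2.82 and -3.08 on Thio+IL-4c arrays and 5.63, 5.40, 5.34 and 5.35 on IL-4c arrays, 355-fold lower (-8.47 ± 0.16, SE; adjusted p = 6.88e-11). Alox5, the leukotriene-forming lipoxygenase, read 1.36, 0.93, 0.79 and 2.38 against 5.41, 5.31, 5.24 and 5.44. With Alox15 above, both lipoxygenases and prostacyclin synthase were lower on every Thio+IL-4c array than on any IL-4c array, although both lipoxygenases stayed above the 75th percentile.

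Nucleotide receptors diverged. P2ry6, a UDP receptor, rose by 5.91 ± 0.19 (SE), and P2ry12, an ADP receptor, fell by 2.80 ± 0.22 (SE). Entpd3, an ectonucleotidase, fell by 3.04 ± 0.67 (SE) without support from Thio 1. In all, 5 of 20 purinergic genes rose and 12 fell. Of 28 scavenger and phagocytic receptors, 9 rose and 16 fell. Fcgr1, the high affinity IgG receptor, rose by 4.63 ± 0.36 (SE), and Colec12, a scavenger collectin, fell by 3.66 ± 0.17 (SE). Olr1, a receptor for oxidized lipoprotein, rose by 4.70 ± 0.46 (SE), while Thio 1 was 2.10 below PBS.

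Among 24 integrin and adhesion genes, 10 rose and 12 fell. Itga6 and Itgb7, integrin subunits, fell by 3.28 ± 0.24 and 3.11 ± 0.17 (SE), and of the pair only Itga6 was supported. Retinoid genes had 6 of 23 higher and 11 lower. Cyp26a1, which breaks down retinoic acid, fell by 3.49 ± 0.68 (SE), and Rbp4, the retinol carrier, was well above background on no IL-4c array and at least 83.7-fold higher. Rbp4 was not large and supported after normexp or in the authors' deposited table.

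Iron and arginine genes had no common direction. Of 20 iron and heme genes, 8 rose and 7 fell. Cp, the ferroxidase ceruloplasmin, fell by 2.40 ± 0.35 (SE), but by 0.59 with the slide block (adjusted p = 0.229). Hpx, which binds heme, fell by 1.92 ± 0.14 (SE), while Thio 1 lay 0.40 above PBS. Of 17 arginine and polyamine genes, 9 rose and 5 fell. Arg2, the mitochondrial arginase, was well above background on no IL-4c array and at least 6.06-fold higher. Arg2 was not large and supported after normexp or in the authors' deposited table. Smox, a polyamine oxidase, rose by 2.57 ± 0.17 (SE), and Ass1, which rebuilds arginine from citrulline, fell by 1.65 ± 0.16 (SE). Neither had support from Thio 1.

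The sorted identity was checked on macrophage markers. Adgre1, whose product was the second sort marker, read 3.71, 3.54, 3.45 and 3.46 on Thio+IL-4c arrays and 6.36, 6.22, 6.24 and 6.27 on IL-4c arrays, and Itgam, which encodes CD11b, was lower by 1.55 ± 0.10 (SE). All arrays thus held both defining genes above the 75th percentile. Csf1r, the receptor for the macrophage growth factor, differed by -0.30 ± 0.12 (SE, adjusted p = 0.0457), with other probes at 0.15 and 0.65. The slide block turned its sign (0.224, adjusted p = 0.318), and the call was lost without any 1 of the 8 arrays. Mertk, a receptor for dying cells, fell by 1.60 ± 0.17 (SE). Lyz2, lysozyme, rose by 3.45 ± 0.22 (SE), although Thio 1 was 1.45 below PBS, and the IL-4c arrays were lowest of all at 0.78 to 1.63.

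Markers of remaining cell types were also read. T and NK cell markers had 5 of 13 members higher and 1 lower, with summed levels of 4.29 to 4.70 against 3.63 to 4.42. Cd3d, a T cell receptor subunit, was lower by 1.21 ± 0.21 (SE), or by 0.616 with the slide block (adjusted p = 0.282). Klrb1c, known as NK1.1, was higher by 4.48 ± 0.57 (SE), or by 1.45 with the slide block (adjusted p = 0.0564). Mast cell and basophil markers had 7 of 10 members lower and 1 higher, with summed levels of 0.76 to 1.25 against 2.98 to 3.46, which did not overlap. The part of such cells in the other values was not tested. Hdc, the histamine-forming enzyme, fell by 4.76 ± 0.36 (SE). Mcpt4, a mast cell protease, fell by 2.05 ± 0.29 (SE), or by 0.50 with the slide block (adjusted p = 0.196).

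Stress and immediate early genes, which can respond to cell handling, had 8 of 13 members higher and 2 lower, with summed levels of 7.26 to 7.39 against 6.82 to 7.0. Hspa1a, an inducible heat shock protein, read 1.66, 1.32, 0.85 and 1.94 on Thio+IL-4c arrays and -3.11, -3.12, -2.26 and -3.22 on IL-4c arrays, while Thio 1 lay 4.56 below PBS. Hsph1, its cochaperone, rose by 1.54 ± 0.18 (SE). None of these stress genes was supported, and their part in other results was not tested.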

How the data were processed

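The values analysed come from 1 scanner table per array, deposited by the authors, whose spot intensities are linear and of a single dye (Cy3). The header of each table names Agilent Feature Extraction 11.0.1.1. Version 11.5, with limma, is what the submitters' processing notes give. Per the file headers, the processed signal is an intensity from which that software had subtracted background. A second table deposited by the authors holds log2 values whose median is 9.234 on all arrays and which correlate with each array's log2 median signal at r of 0.988 to 0.994. Its background correction: not given in the sources used here.

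Of 62976 spots per array, the 3671 control spots and 113 to 165 outlier spots were left out, and none was saturated. The 75th percentile of the signal ran from 1271 to 3866, and 79.1% to 95.6% of probes were well above background. RefSeq accessions (GRCm38.p6) gave 1 symbol to 27235 of the 55681 probes and none to 28446. Spots of a probe were averaged, log2 signal was set relative to the array's 75th percentile, and probes well above background on at least 3 arrays were kept. The brightest probe represented a gene. The number of arrays limits the precision.

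A single limma fit (version 3.58.1, R 4.3.3) held 14 arrays with 1 mean per group. Tests were two-sided with Benjamini-Hochberg adjustment over 20342 genes, and the scripts were tested on simulated data. The members and gene lists were chosen with earlier results of these data known. Named genes were the 10 largest supported rises and falls, up to 3 called members each way from each list, index genes, and up to 5 genes each way detected on one side only, of which the text takes a selection. A list's summed level is log2 of the sum of its members' linear levels. Alternatives were quantile normalization, normexp, the authors' table, other filters and probe rules, the slide or replicate number as a block, array weights, a 2-fold test and leaving out arrays. Normexp used the median signal, a choice made after seeing the data. Same-numbered arrays of the 2 groups had deviations correlated at 0.004, 0.046, -0.148 and -0.005. With 4 arrays per group on separate slides this cannot exclude a pairing, and the main fit used none.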

Additional observations from a re-analysis of the deposited data

Results flagged for a closer look

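Each group of 4 arrays was checked for 1 array far from the others (Dixon's test) in the 154 genes named. Of 308 such groups, 20 arrays stood out, and chance alone marks about 1 in 20. On IL-4c 1 these were Ccr2 at -4.40 (others -3.48 to -3.31), Gpnmb at -6.51 (-4.35 to -4.06), Timd2 at 3.74 (3.51 to 3.53) and Rax at -2.98 (-3.20 to -3.17). On IL-4c 2 they were Chil3 at 7.13 (7.29 to 7.32) and Tyms at -1.99 (-1.54 to -1.46). On IL-4c 3 they were Ube2c at 4.09 (3.88 to 3.89), C4b at 6.49 (6.72 to 6.75) and Hspa1a at -2.26 (-3.22 to -3.11). On IL-4c 4 they were Ltbp1 at 2.43 (2.17 to 2.20) and Dcn at -4.14 (-3.31 to -3.27).

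Thio+IL-4c 4 stood out most often in its group, with Serpinb2 at 1.15 (others -2.0 to -1.48), Atp6v0d2 at 2.56 (3.51 to 3.63), Hmgcs1 at 2.65 (2.20 to 2.23), Batf3 at 3.92 (4.46 to 4.54) and Tnfsf9 at 0.04 (-0.58 to -0.51). On Thio+IL-4c 1, Timd2 read -3.42 (-2.90 to -2.85) and Slc2a5 -6.80 (-8.67 to -8.51). Emb read 2.75 on Thio+IL-4c 2 (2.54 to 2.57), and Crabp2 read 3.25 on Thio+IL-4c 3 (3.03 to 3.04). Of these genes, Hmgcs1 lost its call without 1 array.

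In 12 genes all Thio+IL-4c arrays lay beyond all IL-4c arrays while Thio 1 lay beyond all PBS arrays the opposite way, each by at least 2-fold, and the difference between these differences was not tested. Higher in Thio+IL-4c than in IL-4c and lower in Thio 1 than in PBS were Cd226 (6.44 against -2.16), Ccl24 (4.67 against -5.74), Aldh1a2 (1.83 against -1.93), H2-DMb2 (4.53 against -2.79), H2-Oa (4.11 against -1.31), Ccnd2 (4.20 against -2.86) and Olr1 (4.70 against -2.10). So were Lyz2 (3.45 against -1.45), Hspa1a (4.37 against -4.56) and Plac1 (6.31 against -1.86). In the opposite sense were Spp1 (-2.16 against 6.42) and Acadl (-1.68 against 1.02).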

How the results depend on the processing

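With the slide as a block 5437 genes were called, 2496 higher and 2941 lower, and with a test against 2-fold 4953 (3072 higher, 1881 lower). The other settings kept the counts within 1.5 times, although 31.2% of calls were higher in the authors' deposited values, against 39.9%. Those values moved the median of all genes to -0.43, and the slide block moved it to 0.03. Without 1 array, 13312 to 13736 genes were called (5272 to 5563 higher, 8027 to 8284 lower). The replicate number as a block gave 14375 calls, and 148 of 149 called genes named here kept theirs.

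Large and supported changes numbered 581 after normexp with the 75th percentile (258 higher), 529 after normexp with quantile normalization (235 higher) and 521 in the authors' deposited table (192 higher). The supported rises were 308 with the slide as a block and 308 among probes well above background on all 8 arrays. Asking for 2-fold in the contrast gave 1461 in all and 738 falls. Letting Thio 1 lie beyond PBS by any amount gave 1444, with 860 rises and 584 falls. Without 1 array the count was 869 to 1136 (481 to 751 higher, 369 to 406 lower). Of 82 such genes named here, 79 remained after quantile normalization, 72 and 70 after normexp, 65 in the authors' table and 75 with the slide block. Besides the genes marked above, Pparg, P2ry12, Slc2a5, Rax and Mcpt4 were not large and supported in the authors' table.

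List medians moved beyond the spread between arrays as follows, and the cause was not tested. With the slide block they were 0.48 for alternative activation, -4.40 for resident identity, 0.70 for monocyte genes, 2.58 for class II, -0.89 for complement and -1.42 for interferon genes. In the authors' table they were 1.01, -5.08, 0.54 and 1.79 for the first 4 of these, -1.75 for cell cycle and 0.999 for chemokines. Quantile normalization gave 1.62 for alternative activation and -1.54 for cell cycle. Normexp with quantile gave 1.55 for alternative activation, 1.07 for chemokines and -1.63 for interferon genes, and normexp alone -1.56 for the last. Array weights gave -1.58 for cell cycle. Only probes above background on all 8 arrays gave 0.89 for alternative activation and 0.44 for monocyte genes, and the mean of probes gave 1.48 for the latter. Without 1 array the medians ran from 1.33 to 1.57 for alternative activation, -4.82 to -4.70 for resident identity, 0.84 to 0.995 for monocyte genes and 2.10 to 2.32 for class II. They ran from -1.59 to -1.28 for cell cycle, -1.23 to -1.12 for complement, 1.36 to 1.57 for chemokines and -2.15 to -1.78 for interferon genes.

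Signs turned as follows. With the slide block, the medians of retinoid, integrin and dendritic cell lists were 0.21, 0.20 and 1.12, and Tyms and Csf1r gave -0.16 and 0.22. In the authors' table the receptor list had -0.058, and Chil3, Retnla and Il4ra, not called in the main analysis, had -0.21, -0.21 and -0.37. Quantile normalization gave -0.01 for Retnla and -0.022 for Il4ra, and normexp gave -0.034 and, with quantile, -0.065 for Il4ra, which ran from -0.051 to 0.144 without 1 array. The mean of probes gave 0.061 for Stat6, 1.84 for Ly6c1 and 0.17 for Csf1r. It also gave 1.192 for Il4ra, which was then called, and -0.569 for Il1rl1, which was not. Arg1 (-0.465) and Cd274 (-0.707) were called in the authors' table. Csf1r lost its call without any 1 of the 8 arrays.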

Other observations

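For some of the genes that rose, the IL-4c arrays lay below the PBS arrays, so the Thio+IL-4c arrays were above the one and below the other. Irf8 read 1.08 to 1.31 on Thio+IL-4c arrays, -2.82 to -1.95 on IL-4c arrays and 3.74 to 3.91 on PBS arrays. Lyz2 read 4.32 to 4.88, 0.78 to 1.63 and 8.39 to 8.61 in the same order. Fcgr1, the IgG receptor, read -2.01 to -0.94, -6.96 to -5.16 and 0.29 to 1.14. None of these ranges overlapped another of the same gene.

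Apoe fell in steps, from 8.23 to 8.64 on PBS arrays to 4.43 to 4.68 on IL-4c arrays and 1.18 to 1.41 on Thio+IL-4c arrays, while the Thio arrays read 7.01 to 7.64. Ccl7 stood at -4.19 to -3.57 on PBS arrays, -4.25 to -3.80 on IL-4c arrays, -0.09 to 0.29 on Thio arrays and 4.03 to 5.03 on Thio+IL-4c arrays. Vdr read -3.90 to -3.68 with thioglycollate alone and 2.05 to 2.69 with IL-4c added.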
